A study of Homo sapiens with 24 samples.

Results

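AEZS-136 is a small molecule made to block PI3K and ERK signalling, and KM-H2 is a line of Hodgkin lymphoma cells that the study classed as resistant to killing by this compound. Gene expression in KM-H2 cells treated with 10 µM AEZS-136 for 24 hours was compared with that in KM-H2 cells given vehicle for the same time, on 3 Illumina bead arrays per group. The whole series held 24 arrays, with treated and vehicle arrays, 3 each, of KM-H2, of the other resistant line L-428, and of L-540 and SUP-HD1, which were sensitive. Each line stands for 1 tumour grown in culture, and the labels number the arrays of a group without tying them to cultures, so the p-values below measure the spread between these arrays. A probe was taken as detected in KM-H2 when its detection p was under 0.01 on at least 3 of the 6 KM-H2 arrays. This rule kept 15144 of 47323 probes, of which 12663 were detected on all 6 arrays. The platform annotation gave a single gene for 11906 of them, 9186 genes in all, and no gene for the other 3238, which are named by their probe number.

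PI3K and ERK carry signals from growth factor receptors to transcription, translation and cell division. The integrated stress response is a separate circuit in which phosphorylation of the translation factor eIF2α slows protein synthesis overall and raises translation of ATF4, a transcription factor that switches on genes for amino acid synthesis and transport, tRNA charging and feedback. Hodgkin lymphoma cells derive from B cells that have lost much of the B cell programme, and they are known for active NF-κB signalling and for secreting chemokines.

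The 6 arrays were alike in brightness, with mean signals of 325.0 to 352.4 and 30.9% to 33.1% of probes detected. Correlations of log2 signals over the detected probes were 0.9887 to 0.9945 between treated arrays, 0.9947 to 0.9952 between vehicle arrays and 0.9757 to 0.9807 between the groups. The identity of the line was checked against markers of Hodgkin and B lineage cells. Probes for TNFRSF8 (CD30), CCL22, PAX5 and POU2F2 were detected on none of the 6 arrays, and of the 3 probes for MS4A1 (CD20) a single one was detected, on 1 treated array. Those for CCL22, PAX5 and POU2F2 were detected on none of the 24 arrays, and that for TNFRSF8 on 6 of the 24. The MS4A1 probes were detected on 3, 0 and 0 of the 24. Missing or scarce detection of these markers is thus not particular to KM-H2. A CD79A probe was detected on 2 treated arrays and 1 vehicle array, and CCL17 on the 3 vehicle arrays only. TRAF1, FSCN1, CD40, CD80, CD86 and the MHC class II genes were detected. Only part of the usual Hodgkin markers was thus detected by these probes.

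AEZS-136 changed 1582 probes in KM-H2 when a call asked for an adjusted p below 0.05 in limma and a log2 fold change of 0.4 or more in either direction. Of these, 885 were higher and 697 lower in treated cells. The calls made up 7.90% of the 20027 probes tested, with 4.42% higher and 3.48% lower, and all 1582 were among the detected probes, of which they were 10.4%. They covered 1091 named genes and 324 probes without a gene. The treated and vehicle arrays did not overlap at 1567 of the 1582, against 31.6% of all tested probes. The median log2 fold change was 0.56 among the probes that rose and -0.51 among those that fell. Large changes were mostly increases, since 92 probes rose and 16 fell at least 2-fold, while 14 rose and 3 fell at least 4-fold. The share of higher calls depended on the scaling of the arrays. It was 55.9% with quantile normalization, 73.9% with median scaling and 71.0% with a spline.

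**Figure D1:**
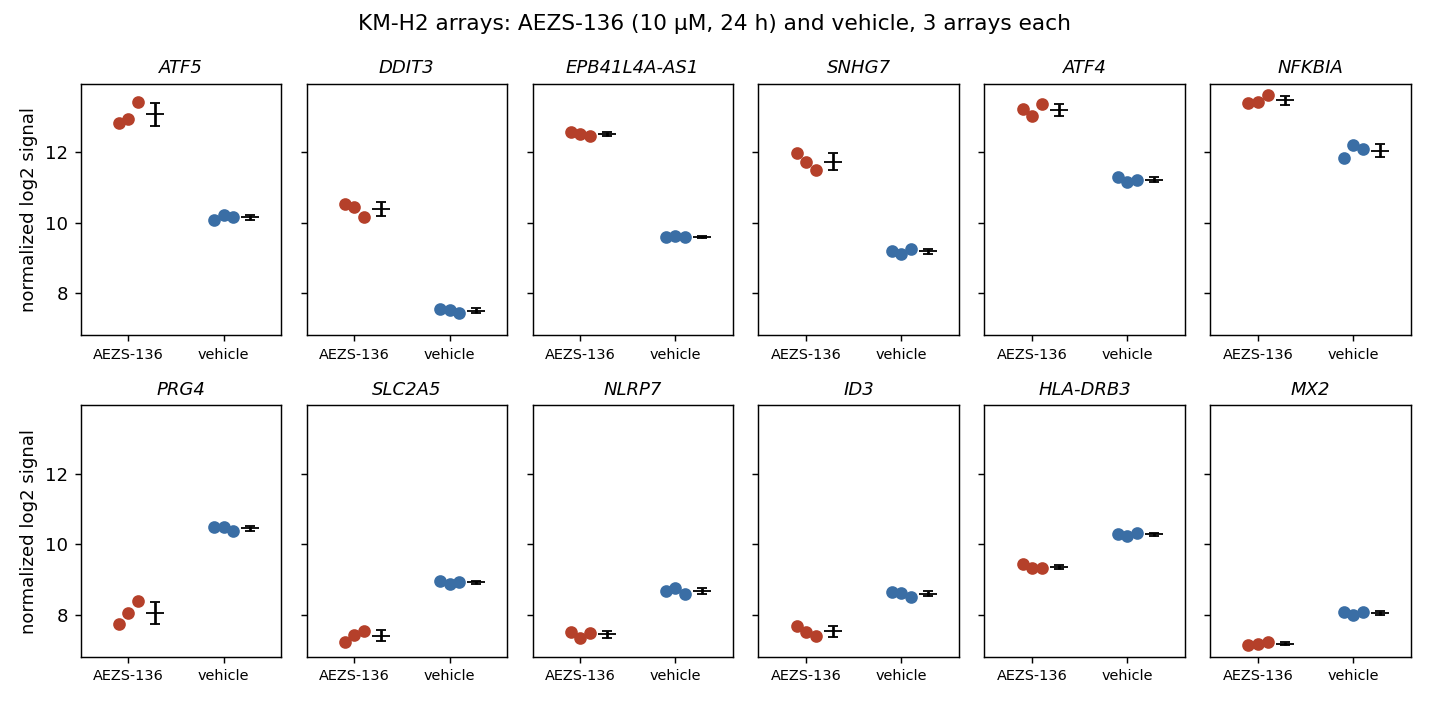
Normalized log2 signal on each KM-H2 array for 12 genes, treated arrays in red on the left and vehicle arrays in blue on the right of each panel, with the mean and SD (n = 3 arrays each) as bars. In all 12 panels the treated arrays lie wholly above (top row) or wholly below (bottom row) the vehicle arrays.

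The integrated stress response was the most uniform of the 22 gene groups examined. Each gene is counted by its brightest detected probe. Of its 18 detected genes, 17 rose and none fell, with a median log2 fold change of 1.01, while over all 9186 detected genes 6.19% rose, 4.67% fell and the median was -0.01. The counts of every list below are to be read beside these shares. DDIT3, which encodes the stress transcription factor CHOP, had log2 signals of 10.53, 10.44 and 10.15 in treated cells and 7.55, 7.52 and 7.43 in vehicle cells. The groups lay far apart, and the change was 7.33-fold (log2 2.87, SE 0.10, adjusted p = 7.4e-17 in limma). PPP1R15A, or GADD34, the phosphatase subunit that reverses eIF2α phosphorylation, had 10.48, 10.65 and 10.65 with AEZS-136 against 8.56, 8.38 and 8.55 with vehicle, a 4.28-fold rise (adjusted p = 1.7e-14). ATF4 itself had 13.22, 13.03 and 13.36 in treated and 11.29, 11.15 and 11.20 in vehicle cells. This was a 3.97-fold rise (SE 0.09 on the log2 scale, adjusted p = 3.9e-15), and of its 2 other detected probes one rose by 1.81 and one had a log2 fold change of -0.13 (adjusted p = 0.44). TRIB3, a pseudokinase that dampens ATF4 activity and AKT signalling, rose 3.17-fold (adjusted p = 1.2e-11).

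ATF5, a transcription factor whose translation is also raised when eIF2α is phosphorylated, was outside this list and had the second largest rise of all probes. Its log2 signals were 12.84, 12.94 and 13.43 in treated cells and 10.08, 10.22 and 10.17 in vehicle cells, which is 7.56-fold (SE 0.11 on the log2 scale, adjusted p = 1.1e-16). The targets that handle amino acids rose by less. Asparagine synthetase, ASNS, rose by 1.41 and 0.95 on the log2 scale at its 2 probes (adjusted p = 3.4e-14 and 1.6e-05). The amino acid transporter chains SLC3A2 and SLC7A5 rose by 1.27 and 1.06 (adjusted p = 6.6e-11 and 7.8e-10). PSAT1 of serine synthesis rose by 0.99, the mitochondrial enzyme PCK2 by 1.03 and the transcription factors CEBPB and CEBPG by 1.31 and 0.90. ATF3, a stress-induced repressor, was the 1 detected gene of the list that was not called, with a log2 fold change of 0.35 (adjusted p = 0.011).

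The promoters of ASNS and SLC3A2 are shown because ATF4 acts with C/EBP proteins at composite sites with the letters TGATGNAA. The sequences run from 250 bases before to 50 bases after the RefSeq start on GRCh38.p14, with the match on either strand in capitals. ASNS lies on the minus strand at chr7:97872359-97872658 and SLC3A2 on the plus strand at chr11:62881449-62881748.
ASNS: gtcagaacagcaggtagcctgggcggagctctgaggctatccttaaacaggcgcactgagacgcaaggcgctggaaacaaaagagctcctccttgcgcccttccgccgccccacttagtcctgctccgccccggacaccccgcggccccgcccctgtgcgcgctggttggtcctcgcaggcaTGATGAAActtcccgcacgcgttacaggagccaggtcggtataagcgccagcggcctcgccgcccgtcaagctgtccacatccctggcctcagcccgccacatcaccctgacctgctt
SLC3A2: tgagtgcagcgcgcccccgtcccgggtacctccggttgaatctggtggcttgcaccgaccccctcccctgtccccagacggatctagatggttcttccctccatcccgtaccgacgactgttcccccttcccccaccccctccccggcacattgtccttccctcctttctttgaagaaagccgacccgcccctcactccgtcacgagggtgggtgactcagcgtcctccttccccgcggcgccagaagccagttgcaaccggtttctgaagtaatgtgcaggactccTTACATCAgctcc
The ASNS match was on the strand of the gene, at positions -68 to -61 from the start, and the SLC3A2 match was on the other strand, at positions 37 to 44. The letters were present in 3 of 16 promoters of the stress response list and in 3.67% of the 27305 promoters in the table. They stood in 3.21% of promoters of genes that rose, 2.72% of those of genes that fell and 1.79% of those of all detected genes. A match is a run of letters and not a measured binding site.

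Enzymes that charge tRNAs with amino acids were looked at after the values had been seen. Of 18 cytoplasmic aminoacyl-tRNA synthetases detected, 9 rose and none fell by the call, with a median log2 fold change of 0.35. SARS1 had signals of 9.97, 9.97 and 10.19 in treated cells against 8.55, 8.51 and 8.56 in vehicle cells, a 2.82-fold rise (SE 0.11 on the log2 scale, adjusted p = 1.4e-10). YARS1 rose by 1.04 and GARS1 by 1.0 on the log2 scale, while KARS1, RARS1 and HARS1 had log2 fold changes of 0.02, -0.03 and 0.08. FARSA and VARS1 had -0.40 and -0.22 (adjusted p = 0.0048 and 0.049), short of the call, so 2 enzymes were lower with no minimum fold change.

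Transcripts that host small nucleolar RNAs made up much of the top of the ranking. These host genes carry snoRNAs in their introns, and the spliced transcripts that remain encode little or no protein and are known to be degraded while being translated. EPB41L4A-AS1, a host transcript on chromosome 5, had log2 signals of 12.57, 12.52 and 12.45 in treated cells and 9.58, 9.62 and 9.59 in vehicle cells. The rise was 7.55-fold (SE 0.08 on the log2 scale, adjusted p = 1.5e-18). SNHG7 had 11.97, 11.72 and 11.50 with AEZS-136 against 9.18, 9.11 and 9.26 with vehicle, a 5.84-fold rise (adjusted p = 9.3e-15). SNHG32 had 13.85, 14.03 and 13.84 against 11.50, 11.50 and 11.51, and rose 5.30-fold. SNHG1 rose 4.98-fold, ZFAS1 4.75-fold and SNHG15 4.99-fold and 4.68-fold at its 2 probes among the largest rises.

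Taken as a family after these values had been seen, 13 of 15 detected host transcripts of this kind rose and 1 fell, with a median log2 fold change of 1.86. SNHG9 fell by 0.46 (adjusted p = 0.035 in limma), a call that was lost under median scaling (-0.34) and without treated replicate 3 (-0.32). The SNHG9 call was also lost with a spline (-0.37), with no detection filter and in the authors' normalized values. Leaving out treated replicate 2, vehicle replicate 1 or vehicle replicate 3 removed it too. GAS5, the best-known host transcript, had a log2 fold change of 0.12 (adjusted p = 0.28) at a level close to background. A further SNHG7 probe near background had -0.13. Detected probes of cytoplasmic ribosomal proteins, also chosen afterwards, showed 5 genes higher and 5 lower of 71, with a median of -0.03, and RPL37 rose by 2.07. The largest rise of all was at ILMN_1654609, a probe without a gene, with 12.95, 12.62 and 12.53 in treated cells and 9.66, 9.68 and 9.59 in vehicle cells (8.31-fold, SE 0.09 on the log2 scale, adjusted p = 7.4e-18). The unnamed probe ILMN_1766446 rose 5.88-fold.

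The first transcribed bases of host transcripts are shown because many transcripts of the translation machinery begin with a C and an unbroken run of C and T, known as a terminal oligopyrimidine start, which ties their translation to growth signalling. Each line gives 25 bases from the RefSeq start on GRCh38.p14, with the opening run of C and T in capitals. ZFAS1 lies at chr20:49278642-49278666, SNHG32 at chr6:31834916-31834940, SNHG5 at chr6:85678709-85678733, SNHG12 at chr1:28581849-28581873, SNHG7 at chr9:136728160-136728184 and SNHG1 at chr11:62855861-62855885.
ZFAS1: CTTTCgcgtctgcggtgcccggagt
SNHG32: CTTTTTgcgaagtgggctcgtgggt
SNHG5: CTTTTacgtcggccttcgcgagcgt
SNHG12: CCTTTCTCCCCgccgcattcccggt
SNHG7: CTCTgcgtgcgccggaggctgccgt
SNHG1: CTCatttttctactgctcgtggtaa
A start at C with a run of at least 5 was present in 5 of the 12 host transcripts that the table held, in 40 of 60 ribosomal protein genes and in 4.04% of all promoters in the table. It stood at 5.83% of detected genes, 8.63% of genes that rose and 5.93% of genes that fell. SNHG5 and SNHG12 rose by 1.03 and 1.86 on the log2 scale, so hosts with long and with short runs were both among those that rose. The starts shown all begin with C, whereas EPB41L4A-AS1, the host with the largest rise, begins with T followed by G. At the RefSeq start used, GAS5, SNHG11 and SNHG17 begin with neither C nor T. A single annotated start was read for each gene, and the starts used in KM-H2 cells were not measured.

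The falls were led by PRG4, which encodes the secreted lubricant proteoglycan lubricin. Its 2 probes had signals of 7.75, 8.05 and 8.38 (ILMN_3221432) and 7.60, 7.69 and 7.89 (ILMN_3304072) in treated cells. In vehicle cells they had 10.48, 10.50 and 10.37, and 9.86, 9.96 and 9.69. The log2 fold changes were -2.39 and -2.11 (SE 0.11 each, adjusted p = 1.0e-14 and 3.0e-13), and the treated arrays were spread more widely than the vehicle arrays at ILMN_3221432. A probe annotated to TPR, a nuclear pore protein, fell alongside, with 9.79, 9.84 and 9.78 in treated cells against values from 11.89 to 12.02 in vehicle cells (-2.17, adjusted p = 3.2e-17). A second TPR probe had a log2 fold change of -0.16 (adjusted p = 0.33). The genes overlap on chromosome 1 in RefSeq, with PRG4 at 186296273 to 186314567 and TPR at 186311652 to 186375253 on GRCh38.p14. The TPR probe that fell was also undetected on all arrays of L-428 and L-540, as PRG4 was apart from 1 probe on 1 L-540 array, whereas the second TPR probe was detected on all arrays of both lines. Which of the overlapping genes that probe reads was not tested, so its value is uncertain as a measure of TPR.

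SLC2A5, the fructose transporter GLUT5, had 7.24, 7.43 and 7.55 in treated cells and 8.95, 8.87 and 8.94 in vehicle cells, which leaves 0.351 of the vehicle level (log2 -1.51, adjusted p = 2.3e-12). NLRP7, a member of the NOD-like receptor family, had 7.52, 7.33 and 7.49 against 8.67, 8.77 and 8.58 (-1.22, adjusted p = 3.2e-13), and its 2 dimmer probes fell by 0.82 and 0.47. IGLL1, the surrogate light chain of early B cells, fell by 1.22, with the lowest treated array at 8.35 and the others at 8.83 and 8.91. The bile acid carrier FABP6 fell by 1.10 and 1.07 at its 2 probes, again with treated replicate 3 lowest. ID3, an inhibitor of basic helix-loop-helix transcription factors, fell by 1.07, and PLAT, tissue plasminogen activator, by 1.05 (adjusted p = 3.0e-11 and 2.4e-11). The unnamed probes ILMN_2134555 and ILMN_1800220 fell by 1.44 and 1.39.

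**Figure D2:**
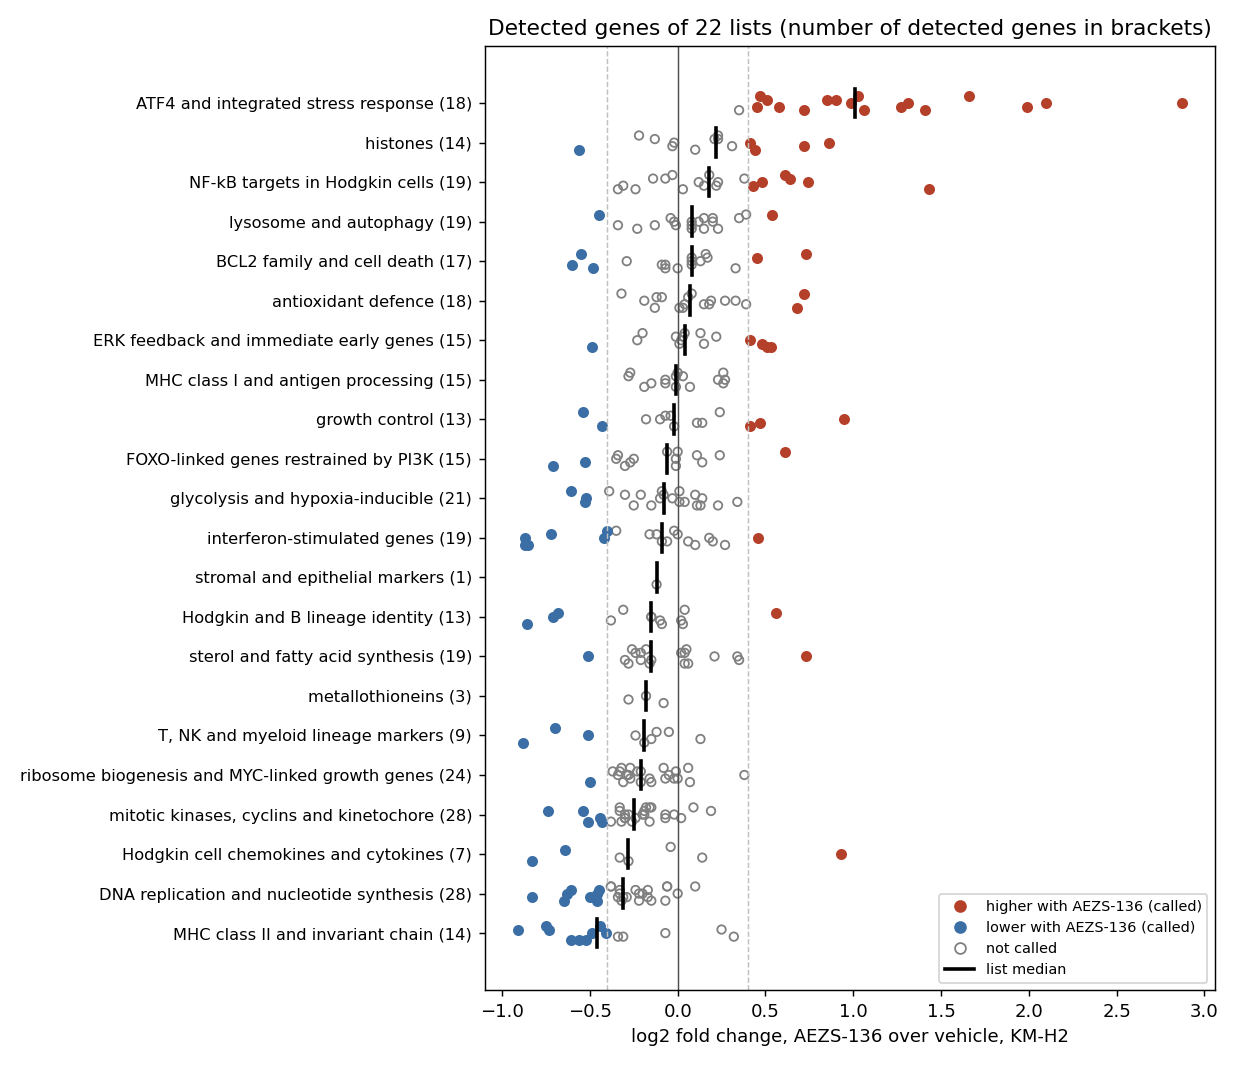
Log2 fold change of AEZS-136 over vehicle in KM-H2 for each detected gene of 22 lists, ordered by list median (black bar). Filled points passed the call (red higher, blue lower), open points did not, and dashed lines mark the minimum of 0.4. The stress response list stands at the top with 17 of 18 genes higher and MHC class II at the bottom with 9 of 14 lower.

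MHC class II genes fell as a group. These encode the molecules that present peptides to helper T cells, with CIITA as their master regulator and CD74 as the invariant chain. Of 14 detected genes of the list, 9 fell and none rose, with a median log2 fold change of -0.46. HLA-DRB3 had 9.43, 9.33 and 9.34 in treated cells and 10.29, 10.24 and 10.31 in vehicle cells, and fell by 0.91 (SE 0.10, adjusted p = 2.7e-07). HLA-DRB4 fell by 0.75 at its brightest probe, with -0.33 and -0.10 at dimmer probes that were not called, HLA-DQB1 by 0.73 and HLA-DRB6 by 0.61 and 0.88 at its 2 probes. The copies of HLA-DRB are near-identical in sequence, and a probe for one can bind another. HLA-DRA fell by 0.49 and 0.57 at its 2 probes, and CD74 by 0.56 and 0.41 at 2 of 3, the smaller of which lost its call without treated replicate 2 (-0.33) or vehicle replicate 1 (-0.36). CIITA had -0.34 (adjusted p = 0.00094), under the minimum change, and HLA-DOA and RFX5 had 0.32 and 0.25. None of the 15 detected genes of the MHC class I list was called (median -0.01).

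The promoter of HLA-DQB1, on the minus strand at chr6:32666608-32666907 on GRCh38.p14, is shown because class II promoters are known for a Y box, CTGATTGG, which is in capitals.
HLA-DQB1: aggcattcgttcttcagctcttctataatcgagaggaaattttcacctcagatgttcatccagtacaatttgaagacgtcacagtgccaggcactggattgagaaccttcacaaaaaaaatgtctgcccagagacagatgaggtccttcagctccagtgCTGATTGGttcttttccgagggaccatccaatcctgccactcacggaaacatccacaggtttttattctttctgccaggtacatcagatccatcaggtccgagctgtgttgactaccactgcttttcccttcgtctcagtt
The match stood at positions -91 to -84 from the start. The 8 letters, searched on both strands, were present in 3 of 9 promoters of the class II list that the table held, in 4.16% of all promoters, in 5.71% of those of detected genes, in 6.17% of those of genes that fell and in 5.42% of those of genes that rose.

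A minority of DNA replication and division genes fell. Of 28 detected replication and nucleotide synthesis genes, 8 fell and none rose (median -0.31), and 26 of the 28 had a negative log2 fold change. UHRF1, which maintains DNA methylation behind the fork, had 9.70, 9.74 and 9.84 in treated cells and 10.45, 10.69 and 10.65 in vehicle cells (-0.83, adjusted p = 3.1e-07). A UHRF1 probe near background had -0.14 and was not called. The helicase subunits MCM2 and MCM4 fell by 0.65 and 0.63 and the replication factor GINS2 by 0.61. RRM2, the ribonucleotide reductase subunit that makes DNA precursors, had 8.29, 8.11 and 8.45 with AEZS-136 and 8.22, 8.06 and 8.26 with vehicle (0.10, SE 0.13, adjusted p = 0.69).

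Of 28 detected mitotic kinases, cyclins and kinetochore genes, 5 fell and none rose (median -0.25). CCNA2, cyclin A, had 8.62, 8.67 and 8.99 in treated cells and 9.54, 9.43 and 9.52 in vehicle cells (-0.74, adjusted p = 5.9e-05). CENPF of the kinetochore fell by 0.54, the kinase NEK2 by 0.51 and CDK1 by 0.44, while dimmer probes of NEK2 and CDK1 had -0.24 and -0.15 and were not called. The NEK2 call was lost under median scaling. AURKB, the kinase of chromosome segregation, had 9.47, 9.67 and 9.72 with AEZS-136 against 9.38, 9.62 and 9.80 with vehicle (0.02, SE 0.10, adjusted p = 0.94), so its groups overlapped fully. The mitotic count was 3 under median scaling and 9 without treated replicate 3. The call for CDK1 was lost under median scaling (-0.34) and with a spline (-0.34). It was also lost without treated replicate 1 (-0.36), treated replicate 2 (-0.39) or vehicle replicate 2 (-0.4).

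NF-κB targets moved in part. Of 19 detected targets, 6 rose and none fell, with a median log2 fold change of 0.18. NFKBIA, the inhibitor that NF-κB itself induces, had 13.39, 13.42 and 13.62 in treated cells and 11.84, 12.19 and 12.10 in vehicle cells, a 2.70-fold rise (SE 0.12 on the log2 scale, adjusted p = 1.6e-09). The cytokine TNF had 10.95, 10.95 and 11.15 against 10.31, 10.34 and 10.19 (0.74, adjusted p = 3.5e-08). Lymphotoxin, LTA, rose by 0.64, the adhesion molecule ICAM1 by 0.61, IL6 by 0.48 and the surface marker CD83 by 0.43. The subunits NFKB1, REL and RELB had 0.12, 0.18 and -0.24 and were not called, nor were TNFAIP3 and TRAF1 (0.22 and 0.23). The call for CD83 was lost without treated replicate 3 (0.32).

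The promoter of NFKBIA, on the minus strand at chr14:35404700-35404999 on GRCh38.p14, is shown with a match to the NF-κB consensus, read on the opposite strand, in capitals.
NFKBIA: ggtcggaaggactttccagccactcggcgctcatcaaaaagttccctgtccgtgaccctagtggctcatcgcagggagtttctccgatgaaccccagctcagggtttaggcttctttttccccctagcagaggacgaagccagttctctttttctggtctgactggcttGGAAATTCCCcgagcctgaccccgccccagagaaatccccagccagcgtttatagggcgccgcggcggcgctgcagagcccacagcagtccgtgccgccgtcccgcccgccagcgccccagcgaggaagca
The match lay at positions -81 to -72 from the start. The consensus, searched on both strands, were present in 5 of 16 promoters of the target list in 1.92% of all promoters, in 2.27% of those of detected genes, and in 2.01% of promoters of genes that rose and 2.22% of those of genes that fell.

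Chemokines and cytokines went in both directions, with 1 of 7 detected genes higher and 2 lower. CCL20, which attracts cells bearing CCR6, had 9.85, 9.78 and 9.52 in treated cells and 8.83, 8.69 and 8.83 in vehicle cells, a rise of 0.93 (adjusted p = 1.1e-08). CXCL10, an interferon-induced attractant of T cells, fell by 0.64 (adjusted p = 8.4e-05). CCL17, known as TARC and as a marker of Hodgkin cells, fell by at least 1.65-fold, since it was not detected on any treated array. CCL5, CXCL8, IL10 and IL32 had log2 fold changes of -0.33, -0.04, -0.28 and 0.14 and were not called.

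Interferon-stimulated genes were divided. Of 19 detected, 6 fell and 1 rose, with a median of -0.09. MX2, an antiviral GTPase, had 7.14, 7.16 and 7.23 in treated cells and 8.07, 7.98 and 8.08 in vehicle cells (-0.87, SE 0.06, adjusted p = 1.6e-10). IFI6 fell by 0.87 (-0.13 at a dimmer probe, not called), IFITM1 by 0.85 and ISG15 by 0.72. ISG15 had 9.87, 9.60 and 9.09 with AEZS-136 against 10.18, 10.26 and 10.29 with vehicle, so its fall was greatest on treated replicate 3. EPSTI1 rose by 0.46, and IRF7 and IRF9 had 0.20 and 0.18.

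Genes downstream of ERK were of interest because the compound is directed at that pathway. DUSP6, an ERK phosphatase often read as a gauge of ERK output, was not detected on any of the 6 arrays at either of its probes, and neither was TXNIP, so no response could be measured for them. Of 15 detected genes of the ERK list, 4 rose and 1 fell (median 0.04). IER3, an early response gene, had 9.10, 9.38 and 9.20 in treated cells and 8.68, 8.68 and 8.80 in vehicle cells, a 1.42-fold rise (log2 0.51, SE 0.08, adjusted p = 2.9e-05). ETV5 rose by 0.53 and DUSP2 by 0.48, DUSP5 fell by 0.49, and the early genes EGR1, FOS and IER2 had 0.01, -0.23 and 0.04. MYC, picked out after its values were seen, had 9.87, 9.72 and 9.98 against 9.55, 9.30 and 9.48, a rise of 0.41 (adjusted p = 0.0012) that fell under the minimum without treated replicate 3 (0.35). Its second probe had 0.30. The DUSP2 call was lost without treated replicate 1 (0.37), and the DUSP5 call under median scaling (-0.37).

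Genes of the BCL2 family and of cell death gave 2 rises (11.8%) and 3 falls (17.6%) among 17, beside 6.19% and 4.67% of all detected genes. HRK, a BH3-only activator of apoptosis, had 9.66, 9.46 and 9.02 in treated cells and 8.67, 8.61 and 8.67 in vehicle cells (0.73, adjusted p = 1.0e-05). PMAIP1, or NOXA, rose by 0.45, a call lost without treated replicate 3 (0.31). Its dimmer probe had 0.21 and was not called. MLKL, the pore-forming effector of necroptosis, had 9.86, 9.57 and 9.53 against 10.31, 10.25 and 10.21 (-0.60, adjusted p = 2.5e-05). BAX fell by 0.55 and BNIP3L by 0.48, with -0.08 and -0.18 at their dimmer probes, which were not called. The BNIP3L call was lost under median scaling (-0.35) and with a spline (-0.37). BCL2, MCL1 and BCL2L1 had -0.07, -0.09 and 0.13. RIPK3, the kinase upstream of MLKL, was not detected on any KM-H2 array.

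Of 13 detected growth regulators, 3 rose and 2 fell. GADD45B had 9.28, 9.47 and 9.43 in treated cells and 8.47, 8.39 and 8.48 in vehicle cells (0.95, adjusted p = 4.1e-10), GADD45A rose by 0.47, and CDK6 and SKP2 fell by 0.54 and 0.43. A second GADD45A probe had 0.25 and dimmer SKP2 probes had -0.31 and -0.08, none of them called. The CDK6 call was lost under median scaling, the SKP2 call was lost without treated replicate 2 (-0.37) and the GADD45A call without treated replicate 3 (0.36). CDKN1A, or p21, had -0.04. The glycolytic enzymes PGAM1, GPI and PKM fell by 0.61, 0.53 and 0.52, and the other 18 of 21 detected genes of glycolysis and hypoxia were not called. Of the sterol list, INSIG1 rose by 0.73 (0.34 at a dimmer probe, not called) and SREBF1 fell by 0.51, with the other 17 not called. SQSTM1, the autophagy receptor p62, and FTL, ferritin light chain, rose by 0.72 and 0.68 as the called genes among 18 of antioxidant defence, and 4 were higher without treated replicate 3. Of 14 histone genes, 4 rose, among them H2BC5 (0.86) and H2AC6 (0.72), and H4C3 fell by 0.56, a call lost without treated replicate 3 (-0.41, adjusted p = 0.077). A dimmer H2BC5 probe had 0.36 and was not called. Histone genes are near copies of each other, so these probes may bind more than their own gene.

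Among FOXO-linked genes, KLF6 rose by 0.61 while BCL6 and SESN1 fell by 0.71 and 0.53, among 15 detected. NOLC1 was the 1 gene of 24 in ribosome biogenesis that was called (-0.50), a call lost under median scaling (-0.37), with a spline and without treated replicate 2 (-0.39), although 21 of the 24 had a negative log2 fold change. ATG12 rose by 0.54 and CTSH fell by 0.45 among 19 lysosome and autophagy genes. Their dimmer probes had 0.2 and -0.38 and were not called. The CTSH call was lost under median scaling (-0.37), with a spline (-0.35) and without treated replicate 3, and the list had 3 genes higher and 1 lower without treated replicate 1. None of 3 detected metallothioneins was called. Of the genes the study had measured by quantitative PCR, CCNA2 and IER3 are given above. DCTPP1 had -0.29 and -0.34 at its 2 probes, HNRNPAB -0.40, -0.27 and -0.23 at 3, and MAPK3 -0.15 and -0.26 at 2, none of them called. The HNRNPAB probe at -0.40 lay just under the minimum and passed it in the authors' normalized values (-0.43), as did the DCTPP1 probe at -0.34 (-0.41).

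Among 13 detected genes of Hodgkin and B lineage identity, ID2 had 10.26, 10.26 and 10.35 in treated cells and 11.12, 11.07 and 11.24 in vehicle cells (-0.86, adjusted p = 8.3e-08). FSCN1 fell by 0.68 and XBP1, of plasma cell differentiation, rose by 0.56 and 0.70 at its 2 probes. The summed linear signal of the 39 probes of that list was 14221 to 14505 on treated arrays and 18288 to 19429 on vehicle arrays. This sum includes background, since 18 of the 39 probes were detected, and it is weighted towards bright probes such as that of FSCN1. Of the 13 detected genes, 9 were not called. Of 9 detected T, NK and myeloid markers, CD3D, CD14 and ITGAM fell by 0.88, 0.70 and 0.51, and the ITGAM call was lost without vehicle replicate 2. The summed linear signal of all 31 probes of that list, background included, was 4851 to 5430 on treated arrays and 5988 to 6336 on vehicle arrays. The defining T cell gene CD3E and the myeloid genes LYZ, S100A8 and S100A9 were not detected on the 6 arrays, and CD3G was detected on 2 vehicle arrays and no treated one. Of the stromal and epithelial list 1 gene was detected and it was not called, and the summed signal was 1863 to 1931 in treated and 1909 to 1919 in vehicle cells. The part of these markers in other results was not tested.

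**Figure D3:**
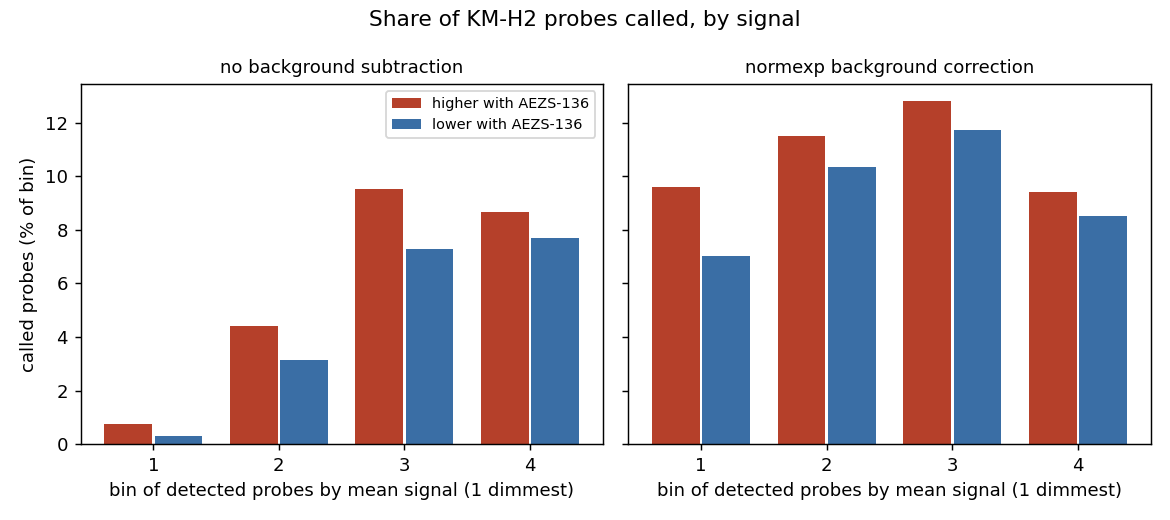
Share of detected KM-H2 probes called higher (red) and lower (blue) with AEZS-136, in 4 equal bins of 3786 probes from dimmest (1) to brightest (4) by mean signal over the 6 arrays. Without background subtraction (left panel) 1.1% of the dimmest bin was called in both directions together, against 16.3% of the brightest, while with normexp (right panel) the shares were 16.6% and 17.9%.

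Changed probes were brighter at baseline than detected probes in general. The median vehicle log2 signal was 8.29 for probes that rose and 9.10 for probes that fell, against 7.84 for all detected probes. The ranges from the lower to the upper quartile were 7.62 to 9.17, 8.31 to 9.93 and 7.20 to 9.03. By 4 equal bins of mean signal over the 6 arrays, the calls were 1.1%, 7.6%, 16.8% and 16.3% from the dimmest to the brightest. With normexp background correction they were 16.6%, 21.9%, 24.5% and 17.9%. The low share in the dimmest bin was therefore seen in uncorrected signals only, and the excess of the median vehicle signal of called over all detected probes was 0.80 without and 0.08 with the correction.

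Probes were counted as switched on when detected on all 3 treated and on no vehicle array, and as switched off in the reverse case. There were 135 switched on and 122 switched off. Most lay just at the detection limit, where the lowest detected log2 signal was 6.91 to 6.95 per array, and the median log2 fold change was 0.22 for probes switched on and -0.20 for those switched off. The call was passed by 12 of the 135 (8.9%) and 9 of the 122 (7.4%), beside 10.4% of all detected and 7.90% of all tested probes. These probes were picked by a difference in detection between the same groups, so their calls do not test the switching. Of the 1582 called probes, 1507 were detected on all 6 arrays. Where a group was not above background, a change is given as a lower bound, from the mean of the detected group over the higher of each undetected signal and the lowest detected signal on its array.

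CTH, the enzyme that makes cysteine from cystathionine, was the clearest gain. Its probe ILMN_2305112 had 7.92, 7.97 and 8.10 in treated cells and 6.88, 6.71 and 6.79 in vehicle cells, at least 2.10-fold higher. CTH probe ILMN_2305116, also undetected in vehicle cells, was at least 1.24-fold higher, and ILMN_1777060, detected on 1 vehicle array, had a log2 fold change of 0.35 and was not called. A dim SNHG32 probe was at least 1.71-fold higher. Probes for OR7E156P, an olfactory receptor pseudogene, were at least 1.32-fold and 1.34-fold higher, GNGT1, a G protein subunit, at least 1.29-fold and the unnamed ILMN_3303295 at least 1.29-fold. SESN2, a stress-induced regulator of growth signalling in the stress response list, was at least 1.21-fold higher. CCL17 had 6.90, 6.78 and 6.80 in treated cells and 7.71, 7.40 and 7.86 in vehicle cells, at least 1.65-fold lower. PLAAT4, a phospholipid-modifying enzyme, was at least 1.46-fold lower, FAM151A at least 1.34-fold and 1.31-fold at its 2 probes, the chemokine receptor ACKR1 at least 1.33-fold and ASB9 at least 1.24-fold.

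The response of KM-H2 was then set against the mean response of L-428, L-540 and SUP-HD1 by a contrast in the same limma fit. It differed at 1454 of the 15144 detected probes, and at 7.96% of all probes tested. At 760 of them the KM-H2 log2 fold change was the higher. Of the 1454, 974 were not called in KM-H2, so most of the differences were at probes that passed in other lines or in none. Of the 885 probes that rose in KM-H2, 209 rose by more than the mean of the other lines and 29 by less. Of the 697 that fell, 219 fell further and 23 less far. The largest positive differences included small RNA probes that were not called in KM-H2. Their mean vehicle signals there were 7.06 for SNORA80E, 7.42 for SNORA63, 7.27 for SNORA28 and 7.19 for SCARNA13, close to the lowest detected signals of 6.91 to 6.95, so a fall as large as that in L-540 could not have been measured. SNORA80E had a log2 fold change of 0.02 in KM-H2 and of -0.80 in L-428, -4.36 in L-540 and -0.22 in SUP-HD1 (difference 1.81, adjusted p = 8.5e-10). SNORA63, SNORA28 and SCARNA13 (differences 1.66, 1.52 and 1.48) likewise had -0.15, -0.06 and 0.03 in KM-H2 and -4.31, -4.19 and -3.48 in L-540. The L-540 values were the lowest of the 4 lines at all 4 of these probes.

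**Figure D4:**
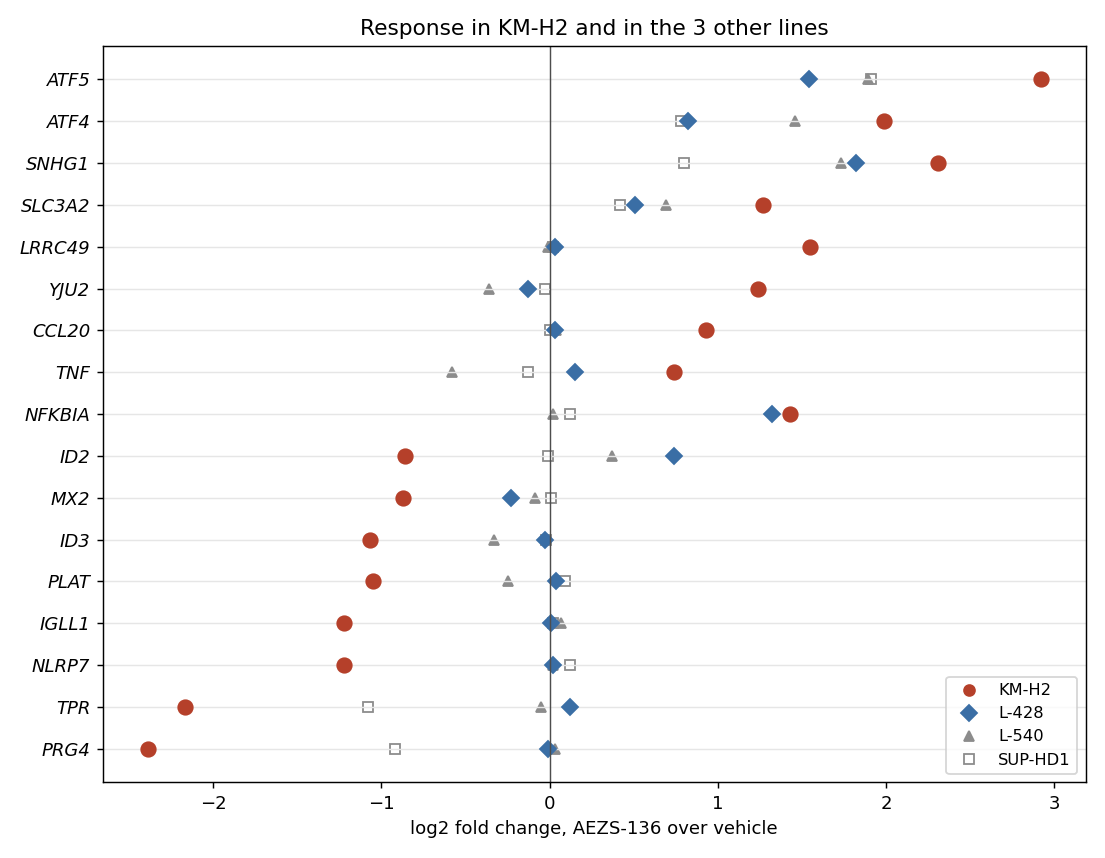
Log2 fold change of AEZS-136 over vehicle in KM-H2 (red circles), L-428 (blue diamonds), L-540 (grey triangles) and SUP-HD1 (open squares) for 17 probes named in the text, 1 row per gene. At ATF4 the KM-H2 value of 1.99 lies beyond the 0.82, 1.46 and 0.78 of the other lines, and at NFKBIA the 1.43 of KM-H2 lies beside the 1.32 of L-428. LRRC49, CCL20, IGLL1 and NLRP7 were detected on at most 1 array of any other line, so their points there are background. PRG4 and the TPR probe were detected on at most 1 array of L-428 and of L-540. ID3 and PLAT were detected on none of L-428 and SUP-HD1 and on 2 and 3 of 6 arrays of L-540. MX2 was detected on 1 of 6 L-540 arrays. These points are also at or near background.

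To find responses that set KM-H2 apart from each line, probes called in KM-H2 were also required to differ from L-428, from L-540 and from SUP-HD1, each in the same direction and past the same thresholds, a rule chosen after seeing the data. There were 205, of which 82 rose (9.3% of those that rose) and 123 fell (17.6%). At 169 of the 205 none of the other lines was called. Detection limits what this shows, since 84 of the 205 were detected in no other line (under 3 of 6 arrays) and 76 in all 3.

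ATF5 and ATF4 were among those detected in every line. ATF5 had a log2 fold change of 2.92 in KM-H2 against 1.54 in L-428, 1.89 in L-540 and 1.91 in SUP-HD1, and the difference from their mean was 1.13 (SE 0.12, adjusted p = 4.0e-07). ATF4 had 1.99 against 0.82, 1.46 and 0.78 (difference 0.97, adjusted p = 1.7e-07). SLC7A5 had 1.06 against -0.12, 0.20 and 0.32 (difference 0.92). SNHG1 had 2.31 against 1.82, 1.73 and 0.80 (difference 0.86). Other members of the same groups were not set apart, since the difference from the mean of the other lines was 0.10 for EPB41L4A-AS1 (SE 0.10, adjusted p = 0.56), 0.01 for SNHG32 (SE 0.13), -0.14 for TRIB3 (SE 0.12) and -0.07 for PPP1R15A (SE 0.11).

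YJU2, a splicing factor, rose by 1.24 in KM-H2 and had -0.13, -0.36 and -0.03 in L-428, L-540 and SUP-HD1, all with the probe detected on 6 of 6 arrays (difference 1.42, adjusted p = 1.2e-08). TNF had 0.74 against 0.15, -0.58 and -0.13 (difference 0.93), and LTA 0.64 against -0.28, -1.46 and 0.67 (difference 0.99). MYC had 0.41 in KM-H2 and -0.57, -0.64 and -0.85 in the other lines, and the difference was 1.1 at this probe and 1.0 at the other (adjusted p = 2.7e-08 and 2.6e-08). IL4I1, an amino acid oxidase of activated B cells, fell by 0.92 in KM-H2 and had 0.20, 0.85 and 1.46 elsewhere (difference -1.76). ISG15 and ID2 had differences of -1.15 and -1.22, with L-540 at 0.97 and 0.37 and L-428 at 0.31 and 0.74. RRM2, at 0.10 in KM-H2, had 0.53 in L-428, -1.47 in L-540 and -1.33 in SUP-HD1 (difference 0.86), and AURKB had 0.52, -0.78 and -0.86 in those lines (difference 0.39, adjusted p = 0.020, under the minimum). IER3 had 0.57 in L-428, -0.84 in L-540 and 0.28 in SUP-HD1 (difference 0.50).

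Several genes were detected in KM-H2 and hardly or not at all in the other lines, so that no response could be read there. LRRC49 had 9.39, 9.18 and 9.40 in treated cells and 7.78, 7.82 and 7.72 in vehicle cells (1.55, adjusted p = 4.6e-14), and was detected on no array of L-428 or L-540 and on 1 of SUP-HD1. The embryonic and fetal globins HBE1, HBG2 and HBG1 rose by 0.83, 1.25 and 1.16 and were detected on none of the 18 arrays of the other lines. HBG1 had 10.31, 10.50 and 10.41 against 9.26, 9.13 and 9.34, and as HBG1 and HBG2 are near-identical their probes cannot be told apart. These genes lie together on chromosome 11, between 5248269 and 5269945 on GRCh38.p14, and were picked after seeing the data. CCL20, NLRP7, IGLL1, HRK and CD3D were likewise detected on no array of the other lines. PRG4 was detected in SUP-HD1 too, where its log2 fold changes were -0.92 and -0.76.

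Against L-428, the other resistant line, the response differed at 1567 of the detected probes (8.85% of all tested), 787 with the higher log2 fold change in KM-H2 and 780 with the lower. Among probes detected on all 6 L-428 arrays, YJU2 and ATF5 led the first set with differences of 1.38 and 1.37. SNORD3D followed with 1.31, from -0.09 in KM-H2 and -1.40 in L-428. MT2A, a metallothionein, led the second at -1.85. LRRC49, PRG4 and the TPR probe that fell were detected on no L-428 array, so their differences (1.52, -2.38, -2.16 and -2.29) set KM-H2 against background. MT2A had 9.72, 9.52 and 8.79 in treated and 9.35, 9.66 and 9.56 in vehicle KM-H2 cells (-0.18, adjusted p = 0.64) and a log2 fold change of 1.67 in L-428. Of the class II genes, HLA-DRB3 had -0.91 in KM-H2 and 0.39, under the minimum, in L-428 (difference -1.30, adjusted p = 7.9e-07), and CD74 had -0.56 and 0.47 (difference -1.03). The fall was not particular to KM-H2, since HLA-DRB3 had -1.01 in L-540 (difference 0.10, adjusted p = 0.73 in limma). HLA-DRB4 and HLA-DRB6 had -0.81 and -0.67 in L-540, while HLA-DQB1 and CD74 had -0.35 and -0.11 there. NFKBIA had a log2 fold change of 1.43 in KM-H2 and 1.32 in L-428 (difference 0.11, SE 0.17, adjusted p = 0.77), while L-540 and SUP-HD1 had 0.02 and 0.12 and the difference of KM-H2 from the mean of all 3 was 0.95. IER3 differed from L-428 by -0.07 (SE 0.11, adjusted p = 0.80), and MLKL fell less than in L-428 (-0.60 and -1.71, difference 1.11).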

How the data were processed

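Biotin-labelled RNA of 24 samples was measured on Illumina bead arrays. The deposited table held, per probe and array, the authors' BeadStudio signal (intensity, not normalized) and a detection value, a fraction equal to 1 minus the detection p. A second deposited table held the authors' log2 values after spline normalization, and was used as an alternative.

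Signals were quantile-normalized over 24 arrays without background subtraction and taken to log2. Probes with a detection value above 0.99 on at least 3 arrays (20027) were fitted in limma 3.58.1 (R 4.3.3) with 8 group means, 16 residual degrees of freedom and Benjamini-Hochberg adjustment over all of them. A call required an adjusted p below 0.05 and a log2 fold change of 0.4 or more in either direction. The code was tested on simulated data. The precision is set by 3 arrays per group (median SE 0.089), and an exact permutation test of 3 against 3 cannot go below 0.1. Gene names came from the platform annotation, and sequences from RefSeq.

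The named probes were the largest changes and contrasts, probes switched on or off, list members that passed the call, and marker genes. Members and lists were chosen with earlier results of these data known. Same-numbered treated and vehicle arrays had correlated deviations of 0.017, 0.069 and -0.071, so numbers were not treated as pairs. Alternatives covered scaling, background correction, filters, tests and single arrays left out.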

Additional observations from a re-analysis of the deposited data

Results flagged for a closer look

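Differences between cell lines in the response to AEZS-136 were tested by contrasts in limma, and the following are the differences of KM-H2 log2 fold changes from the mean of the other 3 lines unless stated. They passed at 1454 detected probes, and at 1567 against L-428 alone.

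Among genes that rose in KM-H2, the difference was 1.13 for ATF5, 0.97 for ATF4, 0.46 for DDIT3 and 0.92 for SLC7A5. It was 0.86 for SNHG1 and 0.46 for SNHG15. DDIT3 and SNHG15 did not exceed every line, since they had 3.08 and 2.6 in L-540 against 2.87 and 2.32 in KM-H2. SNHG15 had 0.88 in SUP-HD1, and its difference from L-428 was 0.23 (adjusted p = 0.22 in limma). The next values are again differences from the mean of the other 3 lines. It was 0.95 for NFKBIA, 0.93 for TNF, 0.99 for LTA, 0.91 for CCL20 and 0.50 for IER3. NFKBIA, LTA and IER3 were not set apart from every line. NFKBIA had 1.43 in KM-H2 and 1.32 in L-428 (adjusted p = 0.77 in limma). LTA had 0.64 in KM-H2 and 0.67 in SUP-HD1, and IER3 had 0.51 in KM-H2 and 0.57 in L-428. From the mean of the other 3 lines, YJU2 differed by 1.42, LRRC49 by 1.54, and HBE1, HBG1 and HBG2 by 0.83, 1.14 and 1.26. LRRC49, CCL20 and the 3 globins were detected on at most 1 array of any other line, so these differences set KM-H2 against background and not against a measured response. The 2 probes of MYC differed by 1.1 and 1.0.

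Among genes that fell, the difference was -2.09 and -1.88 at the 2 probes of PRG4, -1.84 at the TPR probe, -0.70 for SLC2A5, -1.28 for NLRP7, -1.26 for IGLL1, -0.95 and -0.94 for FABP6, -0.94 for ID3 and -1.01 for PLAT. It was -1.13 for ILMN_2134555 and -1.15 for ILMN_1800220. NLRP7 and IGLL1 were detected on no array of the other lines, PRG4, TPR (the probe that fell), FABP6, ID3 and PLAT on few or none in at least 2 of them, and SLC2A5 on none in L-540, so these values are wholly or partly set against background. The fall of SLC2A5 was shared with L-428, with -1.51 in KM-H2 and -1.5 in L-428 (difference -0.01, adjusted p = 0.99 in limma). SUP-HD1 had -0.91 at this probe. MX2, detected on 1 of 6 L-540 arrays, differed by -0.76, ISG15 by -1.15, ID2 by -1.22 and IL4I1 by -1.76.

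Probes that were not called in KM-H2 also differed, with 0.86 for RRM2, 1.81 for SNORA80E, 1.66 for SNORA63, 1.52 for SNORA28 and 1.48 for SCARNA13. The small RNA probes were close to the detection limit in KM-H2.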

How the results depend on the processing

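The number of changed KM-H2 probes, 1582, was 3065 with normexp background correction, 613 with the methods' t-test and 3601 with no minimum fold change. It was 166 with the authors' normalized values, that t-test and no filter, a setting chosen after seeing the data. Without 1 array it was 1575 to 1738. The difference from the other 3 lines, 1454 probes, became 2590 with no minimum fold change and 1343 to 1521 without 1 array, and that from L-428, 1567, became 1385 to 1533. The 257 switched probes became 303 to 370. The excess vehicle signal of changed probes, 0.80, was 0.64 with median scaling and 0.08 with normexp. The share of positive differences from the other lines, 52.3%, was 73.9% with median scaling and 71.7% with a spline, and that from L-428, 50.2%, was 66.4% and 63.5%. With the replicate number as a block the counts were 1583, 1479 and 1555, and none of the 142 named probes changed its call. The t-test called 3 NF-κB targets higher and no mitotic gene. It was not run between lines. Of the named probes 17 changed their call when 1 array was left out and 0 reversed, and the t-test lost 50. Dim probes close to background are limited by signal. The causes were not tested.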
